A study of Homo sapiens with 3 samples.

Results

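The genes of the ATP-binding cassette (ABC) transporter family were examined in an ATAC-seq library of hCMEC/D3, an immortal line grown from the endothelium of small vessels of the human brain. Members were all protein-coding genes of a RefSeq gene table (assembly GRCh38.p14) whose symbol is ABC, a subfamily letter from A to G and a number, which gave 45 of 20037 protein-coding genes. Per the labels, the cells were 1 commercial immortalized line at passages 4 to 6, grown to confluence on collagen, and no treatment is named. The series holds 1 ATAC-seq library (replicate 2) and 2 RNA-seq libraries (replicates 1 and 2). In ATAC-seq a transposase inserts sequencing adapters into accessible DNA, so that tags pile up over open chromatin. No second group or second ATAC library was analysed here, so every value below describes 1 library and no test was possible. The RNA tables list transcripts by identifier without their genes, and the members' expression was not analysed here.

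ABC proteins bind and hydrolyse ATP, and most of them use it to move substrates across a membrane. In brain endothelium they are best known as efflux pumps of the blood-brain barrier: P-glycoprotein (ABCB1), the breast cancer resistance protein (ABCG2) and several multidrug resistance proteins (ABCC1, ABCC4 and ABCC5) return drugs and metabolites to the blood. Other members export sterols and phospholipids (mainly ABCA and ABCG), serve mitochondria and lysosomes (part of ABCB), import fatty acids into peroxisomes (most of ABCD), or carry the ATP-binding domains without a membrane part and act in translation (ABCE and ABCF).

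Some members start transcription from more than 1 site, and the sequences before the starts are shown first because the peaks of the pumps differ between them. They are the 250 bases before a RefSeq start (GRCh38.p14, printed 5′ to 3′ along the gene), with every CpG dinucleotide in capitals. For ABCB1 and ABCG2 an inner start and the upstream start that begins the annotated gene are given. For ABCG2, which has 4 listed inner starts, the inner start nearest the centre of the peak there was chosen. ABCC4 and ABCC5 have 1 listed start each, and none was listed for ABCC1. The promoters of ABCB11, the bile salt export pump of hepatocytes, and ABCC2, a canalicular organic anion pump, are set beside them as promoters without a peak.
ABCB1 inner start, chr7:87600885-87601134, strand -: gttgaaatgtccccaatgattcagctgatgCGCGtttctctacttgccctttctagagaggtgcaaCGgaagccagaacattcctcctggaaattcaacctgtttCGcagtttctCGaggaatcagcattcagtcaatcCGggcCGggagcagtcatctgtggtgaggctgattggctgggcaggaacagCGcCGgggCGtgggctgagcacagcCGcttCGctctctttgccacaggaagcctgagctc
ABCB1 upstream start, chr7:87713296-87713545, strand -: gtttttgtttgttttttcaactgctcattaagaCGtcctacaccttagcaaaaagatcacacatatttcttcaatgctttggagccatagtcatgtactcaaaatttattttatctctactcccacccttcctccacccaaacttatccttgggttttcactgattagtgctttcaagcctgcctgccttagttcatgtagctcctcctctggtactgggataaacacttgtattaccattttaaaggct
ABCG2 inner start, chr4:88158910-88159159, strand -: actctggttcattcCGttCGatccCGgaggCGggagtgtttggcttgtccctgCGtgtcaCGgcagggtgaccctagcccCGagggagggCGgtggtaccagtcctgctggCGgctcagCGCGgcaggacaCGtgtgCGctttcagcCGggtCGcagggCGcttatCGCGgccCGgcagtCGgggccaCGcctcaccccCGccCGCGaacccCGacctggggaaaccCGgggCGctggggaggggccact
ABCG2 upstream start, chr4:88231627-88231876, strand -: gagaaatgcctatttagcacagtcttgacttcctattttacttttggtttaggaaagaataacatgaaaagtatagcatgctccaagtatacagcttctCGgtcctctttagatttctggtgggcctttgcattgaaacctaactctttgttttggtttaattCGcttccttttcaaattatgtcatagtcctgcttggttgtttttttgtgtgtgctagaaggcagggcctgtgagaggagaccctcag
ABCC4, chr13:95301452-95301701, strand -: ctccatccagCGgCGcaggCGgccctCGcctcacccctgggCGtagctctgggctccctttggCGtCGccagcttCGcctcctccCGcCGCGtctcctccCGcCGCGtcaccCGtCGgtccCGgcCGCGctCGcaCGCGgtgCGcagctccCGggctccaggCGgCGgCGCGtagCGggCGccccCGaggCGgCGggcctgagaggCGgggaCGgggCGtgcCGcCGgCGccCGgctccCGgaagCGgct
ABCC5, chr3:184017885-184018134, strand -: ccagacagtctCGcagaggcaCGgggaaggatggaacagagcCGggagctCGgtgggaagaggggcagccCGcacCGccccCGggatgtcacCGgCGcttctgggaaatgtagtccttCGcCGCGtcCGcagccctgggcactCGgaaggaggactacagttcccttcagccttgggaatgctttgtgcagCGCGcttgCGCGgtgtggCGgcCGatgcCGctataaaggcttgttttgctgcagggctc
ABCB11, chr2:169031325-169031574, strand -: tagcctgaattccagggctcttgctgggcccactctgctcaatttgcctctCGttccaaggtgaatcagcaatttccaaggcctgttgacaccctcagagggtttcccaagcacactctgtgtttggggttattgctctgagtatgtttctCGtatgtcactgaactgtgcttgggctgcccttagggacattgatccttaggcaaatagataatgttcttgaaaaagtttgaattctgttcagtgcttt
ABCC2, chr10:99782390-99782639, strand +: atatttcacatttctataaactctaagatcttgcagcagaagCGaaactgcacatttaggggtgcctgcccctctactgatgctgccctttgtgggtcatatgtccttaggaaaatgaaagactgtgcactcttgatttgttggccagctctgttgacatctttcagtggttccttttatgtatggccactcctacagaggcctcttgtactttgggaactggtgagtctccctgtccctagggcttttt

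The sequences held different numbers of CpG dinucleotides. There were 42 before ABCC4, 21 before ABCC5, 27 before the inner start of ABCG2 and 12 before the inner start of ABCB1. The upstream start of ABCB1 was preceded by 1, that of ABCG2 by 2, ABCB11 by 2 and ABCC2 by 1. A peak lay over both printed starts of ABCB1 and of ABCG2 and over the starts of ABCC4 and ABCC5, and none over ABCB11 or ABCC2.

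A peak was counted at a gene end when it lay within 1 kb of either end of the gene, and as inside when it lay elsewhere in the gene. An end peak was found for 33 of 45 members (73.3%, 95% Wilson interval over genes 59.0% to 84.0%), beside 72.8% of all protein-coding genes. A peak at an end or inside was found for 42 members (93.3%, 82.1% to 97.7%), beside 83.7% of all protein-coding genes. The family's share with an end peak thus lay near the background. Its share with any peak was higher, but the interval contained the 83.7% of all protein-coding genes, so it is not read as a difference. The family's genes were longer, with a median length of 82.7 kb compared with 24.1 kb, and a part of length in this share was not tested.

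The 42 genes held 249 peaks, each counted for 1 member. The 42 peaks at gene ends had medians of 942 bp in length and 30.3 tags in pileup. Those inside genes had medians of 456 bp and 25.2 tags. Pileup, the caller's signal of extended tags for a whole broad peak, is the authors' own value and not a count of the tags in it. It was used only to describe and rank peaks within this list, without adjustment for peak length. A gene with more than 1 end peak is given by the one of highest pileup. The median of these was 43.1 tags and 990 bp over the 33 members, compared with 45.7 tags and 1058 bp over all 14595 protein-coding genes with an end peak.

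**Figure D1:**
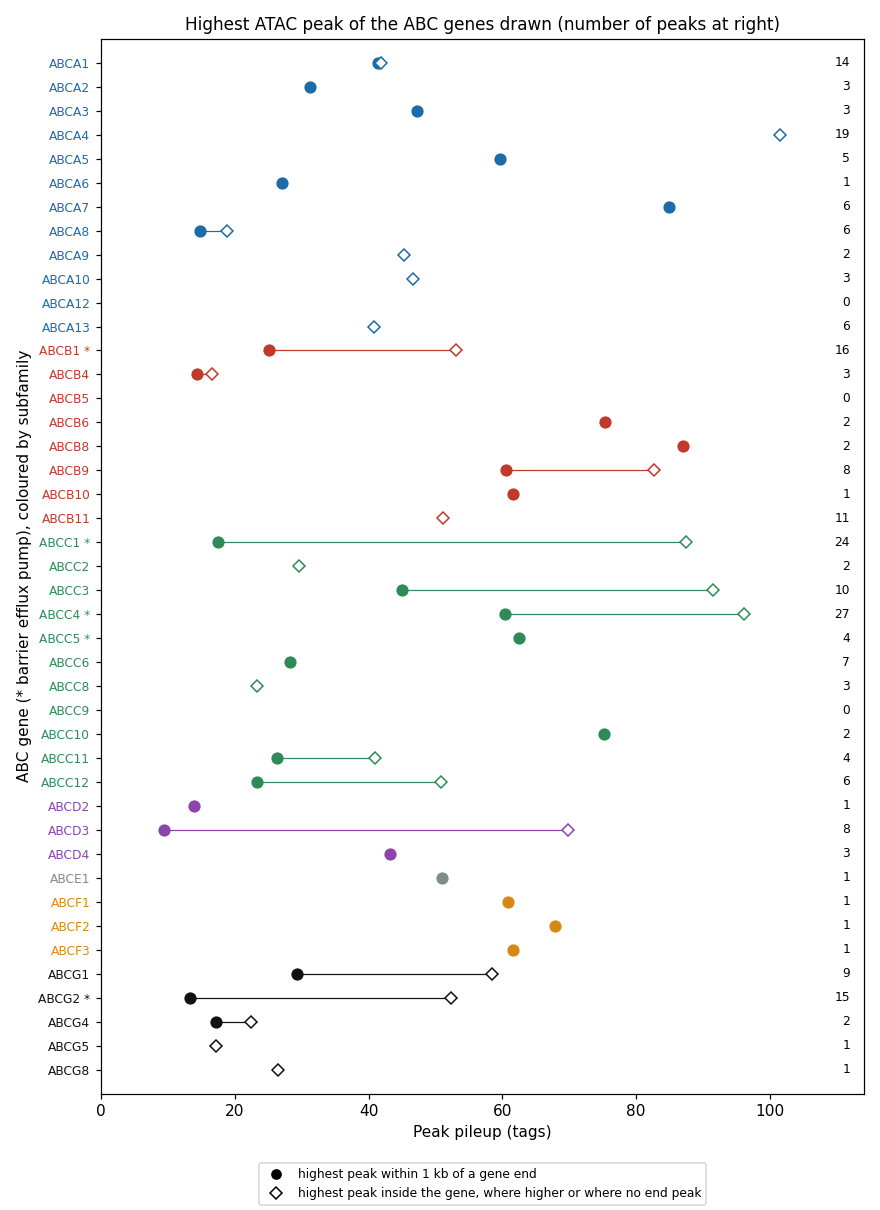
Highest peak of the ABC genes drawn, 43 genes of which 3 have no peak and no symbol, with pileup in tags on the x axis and genes grouped by subfamily on the y axis; filled circles are peaks within 1 kb of a gene end and open diamonds are peaks inside the gene, drawn where they are higher or where there is no end peak. ABCB8 has the highest end peak (87.08 tags) and ABCD3 the lowest (9.46 tags), and the genes with no peak are ABCA12, ABCB5 and ABCC9.

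Each subfamily holds few genes, and the 95% Wilson interval of every subfamily's share with an end peak contained the 72.8% of all protein-coding genes, so these counts are not read as differences between subfamilies. The ABCE and ABCF members, which have no membrane part, all had one. ABCE1, which splits ribosomes for recycling, had a pileup of 51.04 tags. ABCF1, which acts in translation initiation, had 60.85 tags, ABCF2 had 67.84 and ABCF3 had 61.63. In each of these 4 genes the end peak was the only peak, and its length ran from 971 to 1300 bp. These genes are short to moderate, from 7.8 kb (ABCF3) to 31.2 kb (ABCE1).

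The ABCD members described here also had end peaks, at lower pileups. ABCD4, which serves lysosomal cobalamin export, had 43.13 tags. ABCD2, a peroxisomal fatty acid transporter, had 13.96 tags, and this was its only peak. ABCD3, the major peroxisomal membrane protein PMP70, had 9.46 tags at its end, the lowest of the family. Its single listed start lies inside the annotated gene, and the peak over that start, on chromosome 1 from 94417400 to 94418903, had 69.88 tags.

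In the ABCB subfamily 7 of 9 members had an end peak, with a median pileup of 60.5 tags. The highest of the family was at ABCB8, a transporter of the inner mitochondrial membrane, with 87.08 tags and a fold of 8.16 over the local background, on chromosome 7 from 151028027 to 151028961. Of other mitochondrial members, ABCB6 had 75.36 tags and ABCB10 61.64. ABCB9, a peptide transporter of lysosomes, had 60.48 tags at its end and 82.68 inside. ABCB4, the phosphatidylcholine translocator of bile, had 14.30 tags at its end and 16.55 inside.

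In the ABCC subfamily 8 of 11 members had an end peak, with a median of 36.6 tags. ABCC10, a broad drug efflux pump, was the highest with 75.22 tags and a fold of 7.01. ABCC3, an organic anion pump of liver and gut epithelium, had 44.93 tags at its end, with a fold of 2.25, and 91.47 tags inside. ABCC6, which is mutated in pseudoxanthoma elasticum, had 28.31 tags. ABCC11 and ABCC12, neighbours on chromosome 16, had their highest end peaks at the far end of the gene, with 26.35 and 23.36 tags. Both also had a peak within 1 kb of a listed start. That of ABCC11 was higher, with 40.98 tags, and also lay at an end of LONP2, and that of ABCC12 had 21.68 tags. Neither sulfonylurea receptor gene had an end peak. ABCC8, the subunit of the potassium channel of pancreatic beta cells, had 3 peaks inside with at most 23.32 tags, and ABCC9, the subunit used in muscle and pericytes, had none. Of the genes for the pores these subunits join, KCNJ11 had an end peak of 27.40 tags and KCNJ8 had no peak.

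The ABCA subfamily had an end peak at 7 of 12 members, with a median of 41.4 tags. ABCA7, a lipid exporter linked to Alzheimer disease, had 84.92 tags, the second value of the family, and that peak also lay at an end of CNN2. ABCA5, a transporter of late endosomes and lysosomes, had 59.67 tags and ABCA3, the surfactant lipid transporter of the lung, 47.27. ABCA1, which loads cholesterol onto apolipoprotein A-I, had the longest end peak of the family at 2005 bp, with 41.39 tags, and 14 peaks in all. ABCA2 had 31.31 tags, ABCA6 27.09 and ABCA8 14.79. The cluster of ABCA5, ABCA6, ABCA8, ABCA9 and ABCA10 on chromosome 17 held 17 peaks over 5 genes, and 3 of the 5 had an end peak.

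In the ABCG subfamily 3 of 5 members had an end peak, and their pileups were low. ABCG1, which passes cholesterol to high density lipoprotein, had 29.23 tags at its end and 58.44 inside. ABCG4, its relative in neurons, had 17.20 tags at its end. ABCG2 had 13.24 tags and is described with the pumps. ABCG5 and ABCG8, the paired sterol exporter of gut and liver, lie head to head on chromosome 2 and had no end peak, with 1 peak inside each, of 17.19 and 26.43 tags.

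The 12 members without an end peak were ABCA4, ABCA9, ABCA10, ABCA12, ABCA13, ABCB5, ABCB11, ABCC2, ABCC8, ABCC9, ABCG5 and ABCG8. Of these, 9 had peaks inside the gene. No peak was called at ABCA12, the lipid transporter of skin lamellar granules, at ABCB5, known from melanoma and limbal stem cells, or at ABCC9. ABCA4, the retinoid transporter of photoreceptors, stood apart from the others without an end peak by number and pileup of peaks. It had 19 peaks, and its highest, on chromosome 1 with a pileup of 101.58 tags, was the highest of any member. The fold of that peak was 4.81, the lowest among the highest peaks of the 9 genes with peaks only inside. ABCB11 had 11 peaks inside, with at most 51.12 tags. ABCA13 had 6, with at most 40.81 tags, in a gene of 476 kb.

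Groups by role were also small, and their counts also stand beside the background of 72.8%. The 3 hepatocyte canalicular genes, ABCB4, ABCB11 and ABCC2, had an end peak at 1 of 3. The group of sterol and lipid exporters, ABCA1, ABCG1, ABCG4, ABCG5 and ABCG8, had one at 3 of 5, with a median of 29.2 tags. Of the lipid transporters of retina, lung and skin, ABCA3 had an end peak and ABCA4 and ABCA12 had none.

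The share with an end peak was next taken by gene length. All 7 members under 20 kb had one (64.6% to 100.0%), beside 65.1% of protein-coding genes of that length. Of the 23 members from 20 to 100 kb, 18 had one (78.3%, 58.1% to 90.3%), beside 80.5%. Of the 15 members over 100 kb, 8 had one (53.3%, 30.1% to 75.2%), beside 76.3%. A peak at an end or inside was found for 12 of them (80.0%, 54.8% to 93.0%), beside 94.9%. Both intervals ended just below the share of all protein-coding genes of that length, and no test was made. All 7 members under 20 kb and all 23 from 20 to 100 kb had a peak at an end or inside, beside 71.6% and 93.1%. For these shorter members the intervals contained the shares beside them. The end peaks of the 8 members over 100 kb with one had a median of 17.4 tags, compared with 41.0 tags over all protein-coding genes over 100 kb with an end peak. For ABCB1, ABCG2 and ABCD3 the highest peak at a listed start was higher than the end peak. These start peaks had 52.7, 40.94 and 69.88 tags, compared with 25.09, 13.24 and 9.46 at the end. ABCA1 and ABCC4 had the same value by both, and the rest had no listed start. Among the members over 100 kb, 7 of 15 had at least 10 peaks, near the background of 38.9% of protein-coding genes over 100 kb; this number of peaks was chosen after the values were seen.

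**Figure D2:**
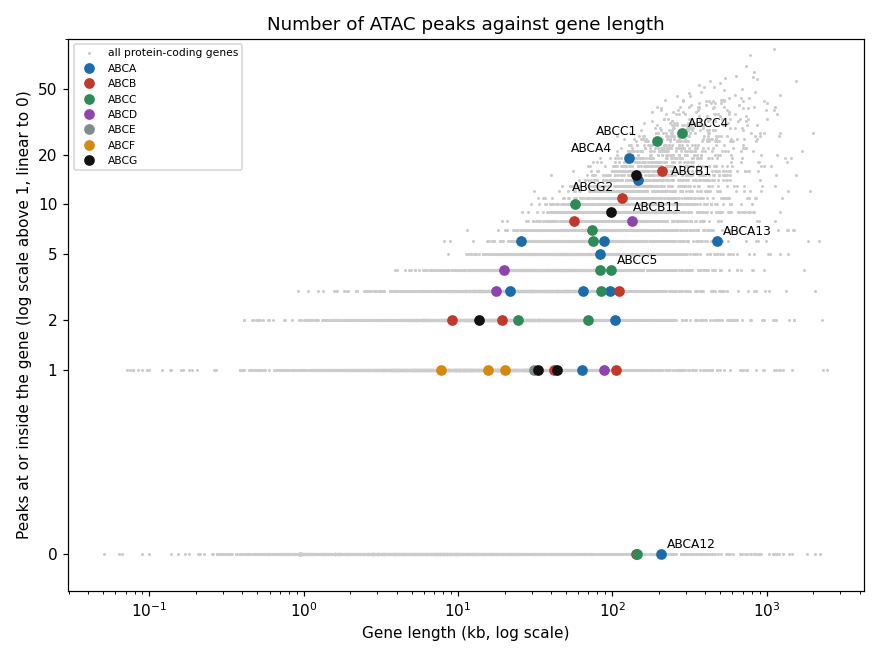
Number of peaks at or inside each gene (y axis, log scale above 1) against gene length in kb (x axis, log scale), for all protein-coding genes in grey and the ABC genes coloured by subfamily. ABCC4 (27 peaks), ABCC1 (24) and ABCA4 (19) hold the most peaks among ABC genes, while ABCA12, ABCB5 and ABCC9 hold none.

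The 5 barrier efflux pumps all had an end peak, beside 72.8% of all protein-coding genes, and their pileups were spread over the family's range. With only peaks of −log10 q of at least 5, ABCC1 and ABCG2 had no end peak, and with only peaks of a fold of at least 4, ABCC1 had none. Together the 5 pumps held 86 of the 249 peaks (34.5%) and 22.2% of the family's summed gene length. Ranked by end pileup among the 33 members with an end peak, ABCC5 was at rank 6, ABCC4 at rank 11, ABCB1 at rank 24, ABCC1 at rank 26 and ABCG2 at rank 32. By this pileup ABCC4 and ABCC5 were above the family's median, and ABCB1, ABCC1 and ABCG2 below it. The placement did not hold for ABCC4 by fold, at rank 27 of 33, or for ABCB1 by peak length, at rank 16 of 33. At listed starts only, ABCB1 was at rank 14 of 26, next to the median. Among all protein-coding genes with an end peak, the pileup of ABCC5 exceeded 78.1%, ABCC4 75.2%, ABCB1 18.4%, ABCC1 10.2% and ABCG2 5.36%.

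**Figure D3:**
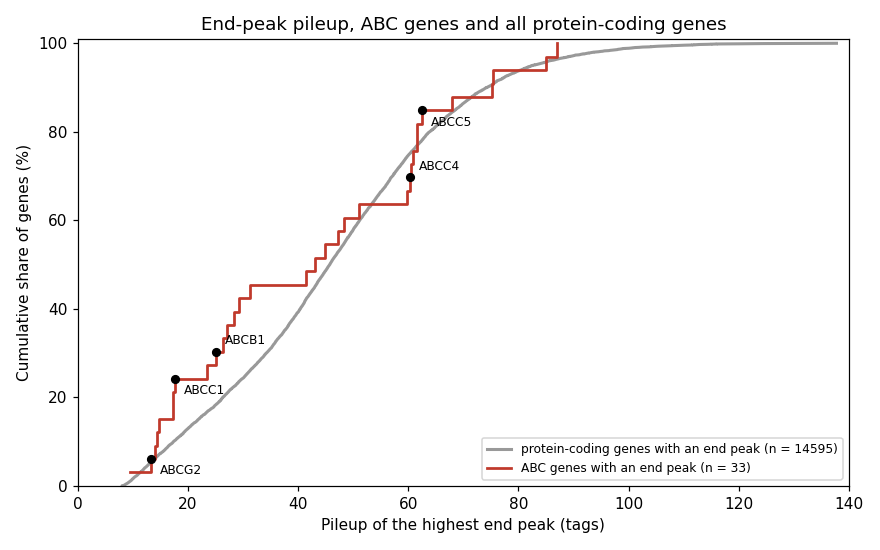
Cumulative share of genes (y axis, %) by pileup of the highest end peak in tags (x axis), for 14595 coding genes that have such a peak (grey) and the 33 ABC genes with one (red); black points are the barrier pumps. ABCG2, ABCC1 and ABCB1 lie in the lower part of both curves, and ABCC4 and ABCC5 in the upper part.

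The order changed when peaks inside the genes were counted. By the highest peak anywhere in the gene, among the 42 members with a peak, ABCC4 was at rank 2 with 96.06 tags and ABCC1 at rank 4 with 87.47 tags. ABCC5 was at rank 12 with 62.47 tags, ABCB1 at rank 18 with 53.12 and ABCG2 at rank 19 with 52.31. By number of peaks, ABCC4 with 27 and ABCC1 with 24 led the family, ABCB1 with 16 and ABCG2 with 15 were at ranks 4 and 5, and ABCC5 had 4. Per 100 kb of gene and flanks, the numbers were 12.3 for ABCC1, 10.5 for ABCG2, 9.52 for ABCC4, 7.54 for ABCB1 and 4.00 for ABCC5. The median of the family was 5.90, that of all protein-coding genes 6.85, and that of protein-coding genes over 100 kb 3.89.

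ABCB1 encodes P-glycoprotein, which exports a wide range of lipophilic drugs. Its annotated gene spans 210.3 kb and begins at an upstream start. The end peak there, on chromosome 7 from 87712587 to 87713620, had 25.09 tags. The peak over the inner start, from 87600122 to 87601224 and centred 112.6 kb into the gene, had 52.70 tags and a fold of 5.64. The pileup at the inner start was thus about that of the highest peak in the gene, 53.12 tags from 87627628 to 87629277, which also lay at an end of RUNDC3B, a gene that overlaps ABCB1. The peak of highest fold was another, from 87702243 to 87702675, with a fold of 11.3 and 43.82 tags, 10.8 kb from the upstream start. The other 12 peaks of the gene had between 10.35 and 34.02 tags.

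ABCG2 encodes the breast cancer resistance protein, which shares many drug substrates with P-glycoprotein. The end peak at the upstream start, on chromosome 4 from 88231009 to 88231822, had 13.24 tags. The peak over the inner starts, from 88158237 to 88159616, had 40.94 tags over 1380 bp and was the longest of the gene. That peak also lay at an end of LOC124900867, another protein-coding gene. Higher pileups lay further into the gene, from 88106175 to 88106738 with 52.31 tags and from 88104930 to 88105487 with 45.56 tags. For both ABCB1 and ABCG2, therefore, a gene-end window held the lower of the peaks over listed starts.

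ABCC1 encodes MRP1, an exporter of glutathione and glucuronide conjugates. Its end peak, on chromosome 16 from 15949199 to 15950059, had 17.55 tags and a fold of 2.83, and no start of this gene was listed. The gene held 24 peaks, and the highest lay inside. These were 87.47 tags from 15998258 to 15998875, 75.68 tags from 16022010 to 16022465 and 72.26 tags from 15996515 to 15997239, with folds of 4.95, 6.01 and 4.16. All 3 lay between 47.7 and 73.1 kb from the lower-coordinate end of a gene of 193.9 kb.

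ABCC4 encodes MRP4, which exports cyclic nucleotides, prostaglandins and nucleotide drugs. The peak over its start, on chromosome 13 from 95300681 to 95302012, had 60.34 tags and a length of 1332 bp. A second end peak at the far end, from 95020290 to 95020894, had 18.30 tags. The highest peak lay 45.2 kb into the gene, from 95255856 to 95256644, with 96.06 tags and a fold of 8.30, and 73.25 tags were reached 29.9 kb into the gene. A further group of 6 peaks lay between 185.6 and 217.4 kb, with 28.58 to 54.37 tags.

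ABCC5 encodes MRP5, an exporter of cyclic nucleotides and nucleotide analogues. It differed from the other pumps with a listed start in that its start peak was also its highest peak. That peak, on chromosome 3 from 184017185 to 184018437, had 62.47 tags and a fold of 6.23. Its other 3 peaks had 23.23, 12.81 and 9.93 tags and lay within the first 19.1 kb of a gene of 98.0 kb.

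**Figure D4:**
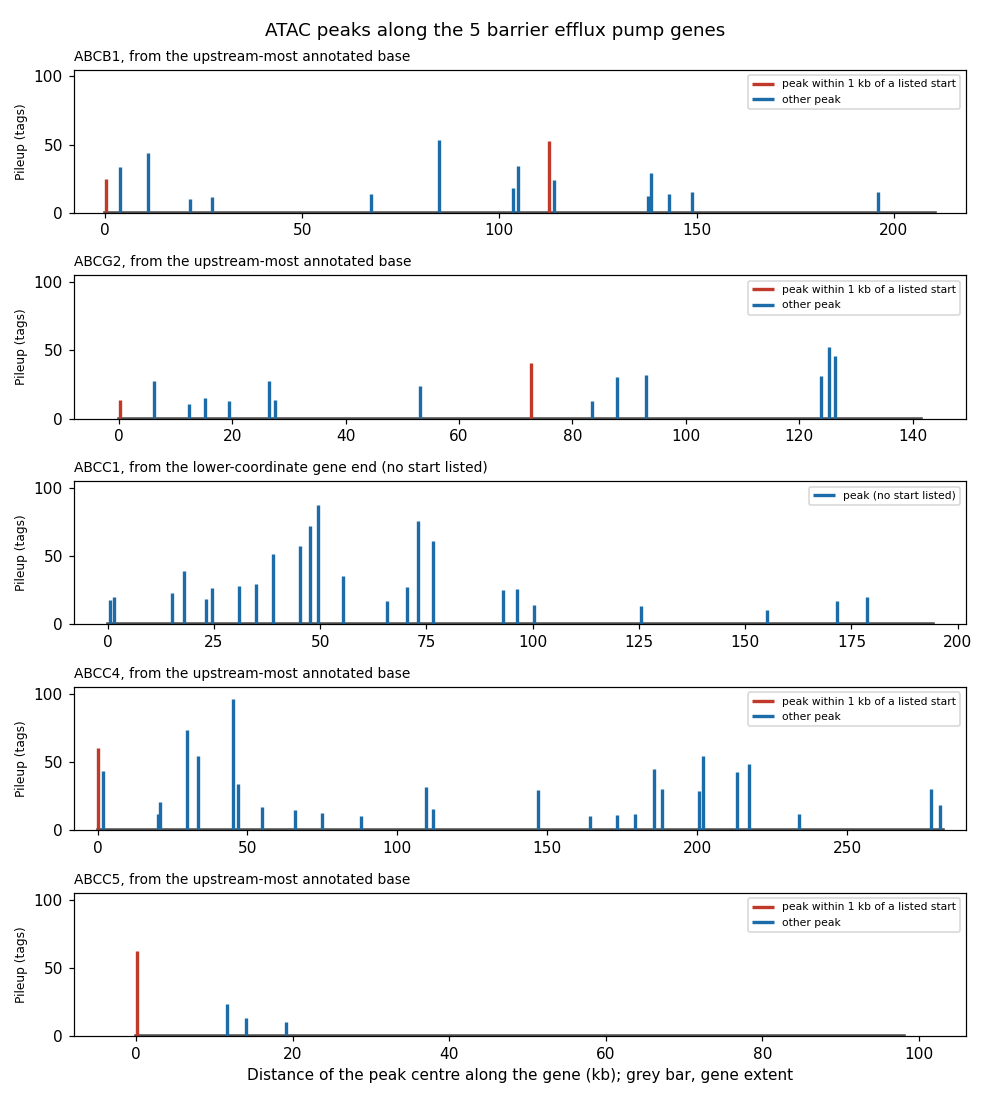
Peaks along the 5 barrier pump genes, with distance of the peak centre along the gene in kb on the x axis and pileup in tags on the y axis; red lines are peaks within 1 kb of a listed start, blue lines other peaks. The start peak is the highest in ABCC5 (62.47 tags), while ABCC4 has a higher peak inside (96.06 tags). In ABCB1 and ABCG2 the inner start is higher than the upstream start. ABCC1 has no listed start, and its highest peak lies inside (87.47 tags).

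A higher peak inside the gene than at its ends was found for 14 of the 33 members with an end peak (42.4%), beside 22.7% of the 14595 protein-coding genes with one. These shares were not matched for gene length, and the family's genes are longer (median 82.7 kb compared with 24.1 kb). The pumps ABCB1, ABCG2, ABCC1 and ABCC4 were among the 14. Listed starts were available for 35 of the 45 members, with 53 starts in all and more than 1 for 12 members. Counted within 1 kb of any listed start, 26 of the 35 had a peak (74.3%, 57.9% to 85.8%), beside 74.0% of the protein-coding genes in that table. The highest start peak had a median of 56.2 tags, compared with 47.0 tags over all protein-coding genes with one. ABCA4, ABCA8, ABCB4, ABCB5, ABCC1, ABCC3, ABCC8 and ABCG1 were among those not listed. The 9 members of that table without an end peak had no start peak either.

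The highest end peak of 9 members also lay within 1 kb of an end of another protein-coding gene, so that it cannot be assigned to the ABC gene alone. Such pairs included ABCA2 with FUT7, ABCA7 with CNN2, ABCB6 with ATG9A, ABCB9 with OGFOD2, ABCD4 with VRTN, ABCE1 with ANAPC10, and ABCF2 with a readthrough gene that contains it. None of the 5 pumps was among them by its highest end peak, but the peak over the inner starts of ABCG2 lay at an end of LOC124900867.

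The base composition of the promoters was then compared between starts with and without a peak. Over the 300 bases from 250 before to 50 after each start, a peak lay over 35 of the 53 ABC starts (66.0%), beside 64.8% of the 22199 starts of protein-coding genes. Starts under a peak had a median G+C content of 66.7%, and those without one 46.7%. The CpG ratio, the observed number of CpG dinucleotides over that expected from the base content, had a median of 0.81 with a peak and 0.18 without. Over all protein-coding starts the medians were 0.84 and 0.30. ABC promoters therefore differed by peak as promoters in general did, and starts of 1 gene are not independent.

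Some ABC starts departed from that pattern. The upstream starts of ABCB1 and ABCG2 and the start of ABCA6 lay under a peak with CpG ratios of 0.10, 0.25 and 0.16, and their peaks had 25.09, 13.24 and 27.09 tags. In the other direction, ABCC9 had a ratio of 0.98 and an inner start of ABCA2 had 1.20, and neither lay under a peak. The inner start of ABCB1 had a ratio of 0.70, and the start nearest the peak centre of ABCG2 had 0.90.

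**Figure D5:**
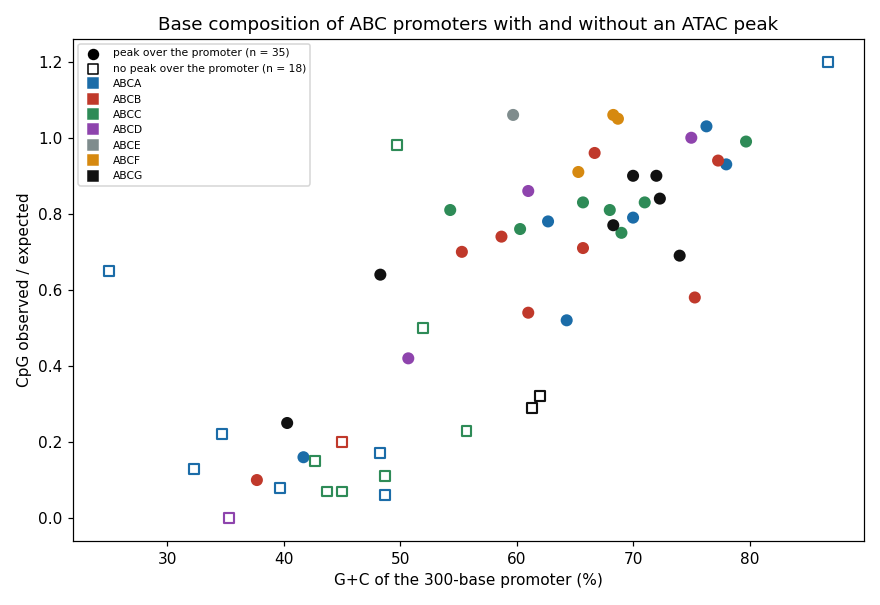
CpG observed over expected (y axis) against G+C content in % (x axis) of the 53 promoters of 35 ABC genes, coloured by subfamily; filled circles lie under a peak (35) and open squares do not (18). The lowest filled circles are starts of ABCB1 (0.10), ABCA6 (0.16), ABCG2 (0.25) and ABCD2 (0.42), and ABCC9 and ABCA2 are open squares at 0.98 and 1.20.

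Short motifs were counted in the same 300 bases on both strands. The GC box bound by SP1, GGGCGG, was in 23 of the 35 promoters with a peak (65.7%) and in 2 of the 18 without (11.1%). Over all protein-coding promoters these shares were 71.8% and 27.7%, so the ABC promoters differed by peak as promoters in general did. It was in 47.2% of the ABC promoters, compared with 56.3% of all protein-coding promoters. The core bound by the aryl hydrocarbon receptor, GCGTG, was in 43.4% of ABC promoters and in 43.0% of all. The core of the antioxidant response element, TGACNNNGC, was in 12 of the 53 (22.6%), compared with 13.8%, and all 12 lay under a peak. Of the 3067 protein-coding promoters with this core, 2121 lay under a peak. The CCAAT box was in 22.6%, compared with 34.7%, and the TATA box, spelled TATAAA, in 15.1%, compared with 9.47%. The E-box CACGTG was in 17.0%, compared with 8.34%, and the ETS motif CCGGAAG in 9.43%, compared with 12.8%. Promoters of a gene can overlap, and the E-box of overlapping ABCG2 promoters is counted more than once. The AP-1 motif TGANTCA was in 11.3%, compared with 6.15%, and the cyclic AMP response element TGACGTCA in 1.89%, compared with 2.26%. The AP-1, antioxidant and cyclic AMP motifs can share bases, and any match is only a match of letters.

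The inner promoter of ABCB1 held the CCAAT box, the AP-1 motif and the aryl hydrocarbon receptor core, and its upstream promoter held none of the 9 motifs. The ABCC4 promoter held the antioxidant, ETS and aryl hydrocarbon receptor motifs, and the ABCC5 promoter the GC box, the TATA box and the aryl hydrocarbon receptor core. The inner ABCG2 promoter printed above held the GC box, the E-box and the aryl hydrocarbon receptor core, and the upstream promoter of ABCG2 held none.

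Genes of transcription factors known to act on ABC genes carried end peaks at 14 of 16 (87.5%), beside the 72.8% of all protein-coding genes. SP1 had the highest with 106.47 tags, and HIF1A had 76.08 and ARNT, the partner of the aryl hydrocarbon receptor, 74.97. NFE2L2, which drives the antioxidant response, had 69.94 tags and AHR 37.53. The liver X receptors, which induce ABCA1 and ABCG1, had 58.50 tags (NR1H2) and 57.56 tags (NR1H3). Of the xenobiotic receptors that induce ABCB1, NR1I2 had an end peak of 12.05 tags and NR1I3 had no peak. NR3C1, the glucocorticoid receptor, had no end peak and 13 peaks inside. Of the ABC proteins with other symbols, the antigen peptide transporter genes TAP1 and TAP2 had end peaks of 61.82 and 53.76 tags. The chloride channel gene CFTR had none and 2 peaks inside.

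The line's label was checked against marker genes, with accessibility only. End peaks, which 72.8% of all protein-coding genes carried, were found at all 9 endothelial markers, from 10.98 tags at ERG to 62.65 at CDH5. All 4 pericyte and smooth muscle markers had one, from 33.07 to 56.84 tags. End peaks were found at 3 of 4 neuronal, 1 of 3 astrocytic, 2 of 3 oligodendrocytic, 1 of 3 microglial and 2 of 3 epithelial markers, and AQP4, MOG and AIF1 had no peak. These lists are too short for their counts to tell cell types apart from that background. A peak at a marker does not show that it is expressed, and the part of other cell types in the ABC values was not tested.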

How the data were processed

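The authors deposited a broad peak list of 1 ATAC-seq library of 106415 peaks, which gives each one a length, a pileup signal, a fold (ratio over local background), and its p-value and q-value as −log10, made with MACS 2.2.7.1 without a control, per the file headers. Tags were shifted by -100 bp and extended to 200 bp. Of 31532245 tags, 22188172 remained at 1 tag per position, and the effective genome size was 1870000000 bp, the caller's mouse preset, per the file headers. That size sets the floor of the background, on which fold, q and the calls depend. The submitters' processing notes name GRCh38 and mm10; which applies to this list is not given in the sources used here. The list was checked against the GRCh38.p14 table: 14.9% of peaks lay within 1 kb of a protein-coding gene end, compared with 5.53% and 5.66% after offsets of 5 kb.

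Peaks were placed with Python 3.11.15 and pandas 2.3.3, with at least 1 bp overlap, and placement was tested on simulated peaks. Starts and sequences came from RefSeq. Full values are given for the pumps, the extremes and each subfamily's highest member, and all members without an end peak are named. Single values of a few genes are not reported here, though they enter the counts. Members, lists and settings were chosen with earlier results of these data known. Genes, peaks and starts are not replicates, so no test was made. Windows, peak filters, overlap and start side were varied.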

Additional observations from a re-analysis of the deposited data

How the results depend on the processing

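Among 73 values under other settings, 6 moved and 67 did not. The latter stayed within the 95% interval of a share or median over genes, or within 1.5 times for counts and ranks. These bounds are wide, so the 67 are not read as a measure of stability. ABCB1, ABCC1 and ABCG2, at main ranks 24, 26 and 32, could not leave them by moving down among the genes ranked. Requiring a longer overlap returned every main value unchanged. The median end pileup was 27.7 tags without end peaks shared with another protein-coding gene, compared with 43.1. The number of peaks was 172 at a fold of at least 4, compared with 249. Both count as not moved. The share of ABC genes with an end peak ran from 62.2%, without end peaks shared with another protein-coding gene, to 80.0% in windows of 2500 bp. In those windows 79.2% of all protein-coding genes had one. No share of all protein-coding genes was taken without shared end peaks, so the 62.2% has no background beside it. The ABC share was 64.4% at −log10 q of at least 5 and at a fold of at least 4, beside 66.7% and 56.0% of all protein-coding genes. In 3 further cases a pump lost its end peak and so had no rank: ABCC1 and ABCG2 with the q filter, and ABCC1 with the fold filter. ABCC1 also had no rank at listed starts, as none is listed for it. Counted at listed starts only, ABCB1 moved from rank 24 to 14 and ABCG2 from 32 to 20, since their inner starts then count and 26 genes are ranked. By fold ABCC4 was at rank 27, and by peak length ABCC5 was at rank 11. Without shared end peaks, a setting chosen after seeing the data, ABCC4 was at rank 7 and ABCC5 at rank 3, with 28 genes ranked. Per 100 kb the 249 peaks came to 5.85, a different unit that was not counted among these values. For the start side and for shared peaks, shares with any peak and peak numbers were not run, because those settings leave peaks inside genes as they are.

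Leaving out a replicate was not run, with 1 ATAC library. No paired analysis was possible because only replicate 2 occurs in both assays. The lowest pileup called was 8.0 tags, so a gene named here as having no peak was below the detection of this library, not shown to be closed.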
